A study of Mus musculus with 12 samples.

Results

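A family of 227 array probes with overlapping sequences is described here, out of 90752 probes of 60 bases each on a mouse array for long non-coding RNA. The rule for membership used the probe sequences alone, but it was chosen with earlier results of these data known. Probes that share 25 or more consecutive bases on the same strand were linked. The fourth largest of the 81540 connected groups was taken. The larger groups held 503, 380 and 323 probes, and the next smaller one held 129. The array was used on the distal 0.5 cm of crushed sciatic nerves taken from mice of strain C57Bl6 at an age of about 2 months, at day 0, day 3, day 7 or day 14 after the right nerve had been compressed for 30 s. There were 3 arrays a day, each with RNA pooled from 6 mice, so a value is a mean over animals and the spread between single mice was not measured. All groups had the crush injury according to the labels, day 0 included, and no uninjured nerve was analysed here. The 12 arrays lay on 3 slides. Slide 1 held replicates 1 and 2 of day 0 and of day 3. Slide 2 held replicate 3 of day 0, replicate 3 of day 3 and replicates 2 and 3 of day 7. Slide 3 held replicate 1 of day 7 and all 3 arrays of day 14, so day 14 and day 0 shared no slide.

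After a crush, the axons beyond the injury break down while the outer sheath of the nerve stays in place. Schwann cells of the distal segment leave their myelinating state, macrophages enter and clear debris, and regrowing axons are later ensheathed again. Long non-coding RNAs are transcripts without a known protein product, and many contain stretches that occur in many places of the genome. An array probe binds any labelled RNA that matches it well, so probes with long shared runs can read the same RNA, different RNAs of like sequence, or both. The files pair no member with a gene name and list all 227 as unmapped, so the RNA each one reads, its position in the genome and its exon, intron or UTR context were not analysed here. For the same reason the nerve's cell type markers were not analysed here. Since members share sequence, they were not treated as independent replicates of a condition.

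The base that most members carry at each of 60 aligned positions gives the following sequence, printed 5′ to 3′. Capitals mark the 16 positions at which 90% or more of the members carry that base.
majority sequence: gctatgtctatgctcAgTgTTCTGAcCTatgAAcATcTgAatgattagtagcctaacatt
The share of members with the leading base ran from 52.9% to 96.4% over the positions, and all capitals lie between base 16 and base 40. Most members started at nearly the same place: 161 of 227 (70.9%) began at the same position of the alignment, and 203 began within 3 bases of it. Edits (substitutions or indels) were counted against the majority sequence of the whole alignment, which runs past the printed 60 bases, with its ends left free. A member differed from it by 1 to 18 edits, with a median of 8. Edit counts below are of this kind unless stated. Against the printed 60 bases alone a member had as many edits or more, such as 36 in place of 7 for MOUSELNCRNA_63125. Every member had a sequence of its own. The 1803 links joined 7.03% of all pairs of members. A member had 1 to 63 links (median 13), and the longest run it shared with another member was 25 to 59 bases (median 30). No probe on the array overlapped a member on the opposite strand.

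The next 6 sequences show how far the family varies. They are the member with the most links, followed in turn by the most linked member not linked to one already taken. Capitals in these and in all later member sequences mark runs of 12 or more bases shared with the majority sequence.
MOUSELNCRNA_16999: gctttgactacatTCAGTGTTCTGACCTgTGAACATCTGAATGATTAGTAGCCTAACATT
MOUSELNCRNA_81566: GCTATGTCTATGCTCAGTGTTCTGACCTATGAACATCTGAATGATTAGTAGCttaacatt
MOUSELNCRNA_59051: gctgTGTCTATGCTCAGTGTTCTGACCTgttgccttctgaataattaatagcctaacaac
MOUSELNCRNA_82845: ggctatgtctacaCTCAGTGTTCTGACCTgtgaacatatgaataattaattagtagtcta
MOUSELNCRNA_89432: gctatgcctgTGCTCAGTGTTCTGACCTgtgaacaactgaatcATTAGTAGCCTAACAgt
MOUSELNCRNA_68284: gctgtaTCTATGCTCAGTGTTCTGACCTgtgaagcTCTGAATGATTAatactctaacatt
MOUSELNCRNA_16999 had 63 links and 6 edits, and MOUSELNCRNA_81566 had 57 links and 1 edit. The other 4 had 10 to 15 links and 6 to 10 edits, and in all 6 a run of capitals covers the stretch around base 20.

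A second set shows the brightest and the dimmest members, which also differ in how much of the majority sequence they keep. MOUSELNCRNA_43517 and MOUSELNCRNA_39902 were the brightest of the 98 members seen on every array. MOUSELNCRNA_66749 and MOUSELNCRNA_54670 had the lowest mean signal of the 49 seen on none.
MOUSELNCRNA_43517: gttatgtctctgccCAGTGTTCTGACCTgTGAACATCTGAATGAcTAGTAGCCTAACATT
MOUSELNCRNA_39902: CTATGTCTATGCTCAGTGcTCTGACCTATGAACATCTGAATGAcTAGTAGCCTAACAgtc
MOUSELNCRNA_66749: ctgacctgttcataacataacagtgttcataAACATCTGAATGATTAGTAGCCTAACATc
MOUSELNCRNA_54670: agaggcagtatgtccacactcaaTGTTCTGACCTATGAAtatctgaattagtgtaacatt
MOUSELNCRNA_43517 had 5 edits and MOUSELNCRNA_39902 had 4. MOUSELNCRNA_66749 had 17 edits and MOUSELNCRNA_54670 had 13.

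Another set holds the members whose changes between days are described in detail below.
MOUSELNCRNA_53310: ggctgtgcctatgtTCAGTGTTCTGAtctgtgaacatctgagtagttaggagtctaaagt
MOUSELNCRNA_81888: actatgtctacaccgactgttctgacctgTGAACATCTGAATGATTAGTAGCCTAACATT
MOUSELNCRNA_42511: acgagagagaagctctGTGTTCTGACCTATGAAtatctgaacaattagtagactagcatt
MOUSELNCRNA_54026: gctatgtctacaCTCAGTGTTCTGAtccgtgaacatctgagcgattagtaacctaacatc
MOUSELNCRNA_75476: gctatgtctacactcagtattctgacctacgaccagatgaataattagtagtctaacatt
MOUSELNCRNA_2612: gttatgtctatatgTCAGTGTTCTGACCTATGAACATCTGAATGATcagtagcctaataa
MOUSELNCRNA_70788: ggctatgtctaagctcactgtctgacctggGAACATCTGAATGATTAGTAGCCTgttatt
MOUSELNCRNA_67219: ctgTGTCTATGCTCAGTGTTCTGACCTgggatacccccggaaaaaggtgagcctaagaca
The runs in capitals run from none in MOUSELNCRNA_75476 to 32 bases in MOUSELNCRNA_2612. None of the members shared a run of 25 bases with any of 32851 promoter windows in the RefSeq table for GRCm38.p6, on either strand, which says only that these letters are not in those windows.

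All values below are log2 of the background-subtracted spot signal, with the arrays brought to the same 75th percentile. A probe was called seen on an array when the scanner software marked all of its spots there as well above background. Brightness differs between probes for reasons of hybridisation as well as of RNA amount, so no probe's level is set against another's as an amount of RNA. The family was dim as a set. The median member had a mean signal of 4.81 over the 12 arrays, against 6.41 for the median of all probes, and 172 of 227 members (75.8%) lay below that median. The range was wide, from 1.70 in MOUSELNCRNA_66749 to 14.01 in MOUSELNCRNA_43517. Among the brightest 25% of all probes lay 3 members, and no array had a saturated spot.

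Of the members, 98 (43.2%) were seen on all 12 arrays and 49 (21.6%) on none, against 58.2% and 19.4% of all probes. At day 0, 175, 174 and 138 members were seen on replicates 1, 2 and 3. At day 3 the counts were 145, 158 and 111. At day 7, 47.1% of the 227 members were seen on replicate 1, 121 members on replicate 2 and 128 on replicate 3. At day 14 the counts were 114, 109 and 111. Replicates 1 and 2 of day 0 had the largest counts, and replicate 3 of day 0 and of day 3, both on slide 2, lay below the other 2 arrays of their day. On replicates 1 and 2 of day 0 the share seen was 77.1% and 76.7% of the members, against 76.9% and 77.3% of all probes. On each of the other 10 arrays the share was lower for the members than for all probes.

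Read by slide, the 4 arrays of slide 1 showed 63.9% to 77.1% of the members, those of slide 2 showed 48.9% to 60.8% and those of slide 3 showed 47.1% to 50.2%. Slides 1 and 2 did not overlap. All probes of the array moved in the same direction: the share seen was 71.2% to 77.3% for slide 1, 64.2% to 69.2% for slide 2 and 61.9% to 65.2% for slide 3. Of the 80 members seen on some arrays and not on others, 46 were seen on all 4 arrays of slide 1 and 31 were seen on slide 1 alone. No member was seen on slide 2 alone or on slide 3 alone, and none of the 80 was missing from slide 1 altogether. The lowest signal that counted as seen also differed, at 3.38 to 4.04 for slide 1, 3.70 to 4.34 for slide 2 and 4.18 to 4.58 for slide 3. Its part in the counts was not tested. Within a slide, where the floor still differs between arrays, slide 1 had 145 and 158 members at day 3, against 175 and 174 at day 0. Of all probes, 71.2% and 76.4% were seen on those day 3 arrays, against 76.9% and 77.3% at day 0. Slide 2 had 121 and 128 at day 7 and 111 at day 3, against 138 at day 0. The shares of all probes there were 67.2%, 69.2% and 64.2%, against 66.7% at day 0. On slide 3 the day 14 arrays showed 48.9%, 48.02% and 50.2% of the members, against 47.1% at day 7. They showed 61.9%, 62.3% and 62.2% of all probes, against 65.2% at day 7.

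Of the 227 members, 139 were seen on all 3 arrays of at least 1 day and were tested. Since 138 of the 139 met this at day 0, counts over the tested members lean towards falls after day 0, and the counts over all 227 members and over the 98 seen on every array are given beside them. The tests were limma's moderated tests over all 62803 probes that passed the same filter, with a call where the adjusted p (Benjamini-Hochberg) was below 0.05. In the test for any difference among the 4 days, 96 of 139 members were called, or 69.1%, and 71.1% of all tested probes were called. With all probes tested, 115 of 227 members were called, or 50.7%, against 55% of all probes. Of the 98 members seen on every array, 64 were called, where 72.6% of all such probes were. In RNA from whole nerve, fewer cells of a type and less RNA per cell cannot be told apart in any of these differences.

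The largest shift lay between day 7 and day 0. Of 139 members, 84 (60.4%) were lower at day 7 and 4 (2.88%) were higher, where 24% of all tested probes were lower and 20.4% were higher. Called in either direction were 88 members (63.3%), against 44.4% of all probes. With all probes tested, 97 of 227 members were lower and 4 were higher, where 16.4% and 13.4% of all probes were and 29.8% were called in either direction. Among the 98 members seen on every array, 57 were lower and 5 were higher, where 23.9% and 22.5% of such probes were. The median log2 difference was -0.70 over the tested members, -0.68 over all 227 and -0.52 over the 98, where the medians over the same sets of all probes were -0.11, -0.10 and -0.06. Of the 98, 59 (60.2%) had their highest day mean at day 0 and 65 (66.3%) had their lowest at day 7, against 30.6% and 15.3% of all probes seen on every array.

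Day 7 had no array on slide 1, where 2 of the 3 day 0 arrays lay. With slide as a fixed term in the same fit, 59 of 139 members were lower and 7 were higher, where 20.7% and 16.8% of all tested probes were and 37.5% were called in either direction. On slide 2 alone, the 2 day 7 arrays against the day 0 array gave a median difference of -0.24 over the 98 members seen on every array, and 70 of them (71.4%) were below 0, against 48.04% of all such probes. This within-slide value rests on 1 day 0 array and has no test. Normexp background correction, which starts from the raw signals, gave 38 lower and 3 higher, with a median of -0.26, where 20.3% of all tested probes were lower, 19.7% were higher and the median was -0.02.

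MOUSELNCRNA_53310 had the largest fall among members seen on all arrays of both days. Its signal was 7.35, 7.22 and 7.58 at day 0, then 4.97, 5.09 and 4.98 at day 3, 5.12, 4.85 and 5.06 at day 7, and 6.19, 6.20 and 5.87 at day 14. No array of days 3, 7 or 14 reached the day 0 values, and the 3 arrays of a day lay close together whichever slide they were on. The difference was -2.37 ± 0.13 (SE) on the log2 scale at day 3 against day 0 (limma, adjusted p = 1.95e-07) and -2.37 ± 0.13 at day 7 against day 0 (adjusted p = 2.93e-07). At day 14 it was higher than at day 7 by 1.08 ± 0.13 (adjusted p = 0.000611). With slide as a term, the same 3 differences were -2.37, -2.51 and 0.96, and all kept an adjusted p below 0.05.

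MOUSELNCRNA_16999, the member with the most links, had the same order of days with a smaller span. It had 6.13, 5.80 and 5.92 at day 0, 5.02, 5.21 and 5.36 at day 3, 4.66, 4.58 and 4.78 at day 7 and 5.68, 5.68 and 5.31 at day 14. The day 7 arrays lay below all others. Day 7 differed from day 0 by -1.28 ± 0.14 (limma, adjusted p = 3.39e-05), and day 14 from day 7 by 0.88 ± 0.14 (adjusted p = 0.00279), or by 0.89 with slide as a term. MOUSELNCRNA_81566, with 1 edit the member closest to the majority sequence among the 6, had 7.37, 7.16 and 7.36 at day 0, 6.68, 6.79 and 6.75 at day 3, 6.63, 6.69 and 6.58 at day 7 and 7.28, 7.18 and 7.11 at day 14. Its day 7 and day 0 arrays did not overlap, and the difference was -0.66 ± 0.10 (adjusted p = 0.000246). The slide coefficient of these 3 probes for slide 2 against slide 1 lay between 0.06 and 0.12, and none was called.

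Not all members of the 6 moved with day. MOUSELNCRNA_82845 held 6.63 to 7.24 and MOUSELNCRNA_89432 held 7.03 to 7.55 over all 12 arrays, and the test over the 4 days gave adjusted p-values of 0.160 and 0.254. Their day 7 and day 0 arrays overlapped. At day 7 against day 0 their differences were -0.12 ± 0.12 and -0.18 ± 0.12 (limma, adjusted p = 0.424 and 0.249). These p-values leave small changes undetected and do not show that the probes stayed level.

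MOUSELNCRNA_42511 and MOUSELNCRNA_54026 had the largest rises at day 7 among the members named by the same rule. MOUSELNCRNA_42511 had 6.04, 5.94 and 5.80 at day 7, against 5.34, 5.28 and 4.86 at day 0, a difference of 0.77 ± 0.16 (limma, adjusted p = 0.00248). MOUSELNCRNA_54026 had 5.04, 5.33 and 5.58 at day 7, against 4.83, 4.80 and 4.76 at day 0, a difference of 0.52 ± 0.15 (adjusted p = 0.0163). Without replicate 3 of day 7 this probe was no longer called (adjusted p = 0.0672). MOUSELNCRNA_81888, the second named fall, had 5.36, 5.40 and 5.69 at day 7, against 6.90, 6.93 and 6.67 at day 0, which differed by -1.35 ± 0.22 (adjusted p = 0.000676).

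At day 3 against day 0, 43 of 139 members (30.9%) were lower and 6 (4.32%) were higher, where 22.7% and 21.7% of all tested probes were. In either direction 49 (35.3%) were called, against 44.4% of all probes. With all probes tested, 40 of 227 members were lower and 3 were higher, where 15.3% and 14.7% of all probes were. Among the 98 seen on every array the counts were 22 lower and 6 higher, so the share lower, 22.4%, was close to the 22.8% of all such probes, of which 46.6% were called in either direction. The median difference was -0.09 over those 98 and 0.05 over all probes seen on every array. On slide 1, with 2 arrays of each day, 72 of the 98 (73.5%) were below 0. On slide 2, with 1 array of each day, 46 of the 98 (46.9%) were, against 49.5% and 43.2% of all probes.

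MOUSELNCRNA_53310, given above, had the largest fall at day 3 among members seen on all 6 arrays, and MOUSELNCRNA_81888 the next. MOUSELNCRNA_81888 had 5.69, 6.35 and 5.61 at day 3, against 6.90, 6.93 and 6.67 at day 0, a difference of -0.95 ± 0.22 (limma, adjusted p = 0.00507). MOUSELNCRNA_54026 had 5.32, 5.54 and 5.68 at day 3, against 4.83, 4.80 and 4.76 at day 0, a difference of 0.71 ± 0.15 (adjusted p = 0.00246). MOUSELNCRNA_48788 had 7.65, 7.998 and 7.66 at day 3, against 7.50, 6.80 and 6.64 at day 0, a difference of 0.78 ± 0.27 (adjusted p = 0.0355). That last call was lost when any of 5 of the 6 arrays was left out (adjusted p = 0.0530 to 0.117), and with the replicate number as a block (adjusted p = 0.0501).

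For day 14 against day 0, 63 of 139 members (45.3%) were lower and 4 (2.88%) were higher, where 29% and 19.4% of all tested probes were. In either direction 67 (48.2%) were called, against 48.4% of all probes. With all probes tested, 74 of 227 were lower and 22 were higher, where 21.3% of all probes were lower and 21.3% were higher. Of the 22, 18 were among the members seen on no array, which carry only a bound. The negative control spots of the array had medians of 2.20 to 2.38 at day 14 and 1.38 to 1.60 at day 0, and their part in these 18 was not tested. Among the 98 seen on every array 35 were lower and 2 were higher, where 27% and 21.5% of such probes were. These days shared no slide and were linked through 1 day 7 array. With slide as a fixed term, 6 members were lower and 1 was higher, where 16.5% of all tested probes were called in either direction, and the median difference of the tested members was 0.02 in place of -0.47. Day and slide could hardly be told apart in this comparison. Without replicate 1 of day 0, replicate 2 of day 0, replicate 2 of day 14 or replicate 3 of day 14, the count called was 35, 40, 38 and 39 in place of 67. Of all tested probes, 18.6%, 18.2%, 21.3% and 20.6% were then lower and 14.2%, 14.2%, 16.2% and 14.8% higher. The highest count with 1 array left out lay above 67. Without replicate 3 of day 0, 34.8% of all tested probes were lower and 21.4% higher.

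MOUSELNCRNA_53283 had 6.45, 6.26 and 6.54 at day 14, against 5.85, 5.58 and 5.60 at day 0, a difference of 0.74 ± 0.15 (limma, adjusted p = 0.00275). MOUSELNCRNA_67219 had 4.66, 4.55 and 4.68 at day 14, against 6.73, 6.48 and 5.40 at day 0, a difference of -1.57 ± 0.34 (adjusted p = 0.00405). MOUSELNCRNA_70788 had 5.12, 5.01 and 5.03 at day 14, against 7.70, 7.25 and 5.32 at day 0, a difference of -1.70 ± 0.56 (adjusted p = 0.0283). In both falling probes the day 0 array on slide 2 lay well below the 2 on slide 1. With slide as a term the differences were 0.50, -0.24 and -0.34, and none was called (adjusted p = 0.265, 0.555 and 0.696).

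At day 7 against day 3, 28 of 139 members (20.1%) were lower and 4 (2.88%) were higher, where 18.6% and 15.7% of all tested probes were. The share lower was thus near that of all tested probes. In either direction 32 (23%) were called, against 34.3% of all tested probes. This count was unstable. Without replicate 1 of day 7 it was 6 in place of 32, and without replicate 3 of day 7 it was 15. Without replicate 1, 2 or 3 of day 3 it was 8, 7 and 58, and with slide as a fixed term it was 6. In the same order, 9.04%, 11%, 8.96%, 11.8%, 25.6% and 14.9% of all tested probes were lower. The shares higher were 10.4%, 11.2%, 10.3%, 12.5%, 18.3% and 10.9%. Calls over all tested probes thus fell or rose together with the count of members in each of these settings. With all probes tested, 17 of 227 were lower and 2 were higher, where 9.84% and 8.77% of all probes were. Among the 98 seen on every array 23 were lower and 0 were higher, where 20.5% and 17.3% of such probes were. Of the 98 members seen on every array, 79 (80.6%) were below 0 on slide 2 alone, against 60.2% of all such probes, with 2 arrays of day 7 and 1 of day 3. At day 14 against day 7 most calls were rises. Of 139 members, 16 (11.5%) were higher and 1 (0.719%) was lower, where 5.61% and 4.35% of all tested probes were. In either direction 9.96% of all tested probes were called. With all probes tested, 15 of 227 were higher and 1 was lower, where 3.03% and 1.94% of all probes were. Among the 98 seen on every array 11 were higher and 0 were lower, where 6.05% and 4.81% of such probes were. With slide as a fixed term 23 members were higher and none was lower, where 5.53% of all tested probes were called. On slide 3 alone, the 3 day 14 arrays against the day 7 array gave a median difference of 0.41 over the 98 members seen on every array, and 81 of them lay above 0. The median over all such probes was -0.01. Normexp background correction gave 1 call in place of 17 at day 14 against day 7, where 8.13% of all tested probes were called.

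Members that crossed the detection limit mostly did so downwards, as did the probes of the whole array against day 0. The lowest signal that counted as seen was 3.38 to 3.99 at day 0 and 4.50 to 4.58 at day 14. Its part in these crossings was not tested. Members seen on every day 0 array but on no array of the later day numbered 3, 17 and 23 at days 3, 7 and 14. Of all probes 0.856%, 1.26% and 4.05% did the same. No member did the reverse in these comparisons, where 0.420%, 0.401% and 0.197% of all probes did. Between day 14 and day 7, 4 members were seen on every day 14 array and unseen on every day 7 array, and 1 did the reverse, where 0.0981% of all probes did the one and 1.65% the other. For such probes a fold can only be given as a bound. On each array of the dim day it was taken against the signal of the probe itself or the lowest signal that counted as seen, whichever was higher. Of the 23 members unseen at day 14, 6 had a bound above 2-fold and 1 a bound at or below 1.

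MOUSELNCRNA_2612 and MOUSELNCRNA_75476 were the only members seen on every array of days 0 and 14 and on no array of days 3 and 7. The pattern was noticed after the values had been seen and occurred in 30 of the 90752 probes, so its differences are given as a description, with no test. MOUSELNCRNA_2612 had 6.11, 5.95 and 6.44 at day 0, 1.72, 1.45 and 2.14 at day 3, 3.84, 3.24 and 3.23 at day 7 and 5.39, 5.05 and 4.83 at day 14. It was at least 4.60-fold lower at day 3 than at day 0 (measured means 1.77 and 6.17) and at least 4.62-fold lower at day 7 than at day 0 (means 3.43 and 6.17). It was at least 2.19-fold higher at day 14 than at day 7 (means 5.09 and 3.43).

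MOUSELNCRNA_75476 had 4.88, 5.09 and 5.49 at day 0, 1.90, 1.68 and 2.31 at day 3, 3.35, 2.43 and 3.81 at day 7 and 6.69, 6.48 and 6.66 at day 14. It was at least 2.28-fold lower at day 3 than at day 0 and at least 2.24-fold lower at day 7 than at day 0. It was at least 6.13-fold higher at day 14 than at day 7 (means 6.61 and 3.19). The rule for rises at day 14 against day 0 also named it, with a difference of 1.45 ± 0.31 (limma, adjusted p = 0.00365), or 0.88 with slide as a term (adjusted p = 0.339). In both probes the day 0 arrays stayed together across slides 1 and 2. At day 3 both were unseen and close to the lowest member signals of those arrays, 1.70, 1.18 and 2.00. The day 3 values therefore say nothing about slides. The longest run shared with another member was 45 bases for MOUSELNCRNA_2612 and 29 bases for MOUSELNCRNA_75476.

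Other members differed between slides at the same day. The slide term compares slides at the same day, so that slide 2 against slide 1 rests on days 0 and 3. Of 139 members, 46 (33.1%) were lower on slide 2 and 6 (4.32%) were higher under the 75th percentile scaling, but the direction turned with the scaling: with quantile normalization 28 were lower and 37 were higher, and with normexp 18 were lower and 36 were higher. Of all tested probes, 15.2% were lower and 21.2% higher with quantile normalization, and 11.1% were lower and 30.3% higher with normexp. In either direction 52 (37.4%) were called, against 37.6% of all tested probes under the 75th percentile scaling, 20.8% lower and 16.8% higher. For slide 3 against slide 2, 0 of 139 members were called, against 0.124% of all tested probes, in a comparison that rests on 1 day 7 array of slide 3 and 2 of slide 2. At an unadjusted p below 0.05 the limma fit gave 44 of 139. The share of all probes at that threshold is not given here, so 44 cannot be read as particular to the family. Under the other 7 settings 0 were called, except for 1 of 227 when all probes were tested.

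MOUSELNCRNA_59051 is an example of a member lower on slide 2. No member called higher on slide 2 is described in detail here. At day 0 it had 6.20 on slide 2, against 7.49 and 7.34 on slide 1, and at day 3 it had 6.18 on slide 2, against 7.38 and 7.41 on slide 1. At day 7 it had 5.63 on slide 3 and 6.25 and 6.15 on slide 2, and at day 14 it had 5.89, 5.91 and 6.03 on slide 3. All slide 2 arrays lay below all slide 1 arrays, whichever the day, and the day 0 and day 3 arrays of one slide lay close together. Slide 2 differed from slide 1 by -1.21 ± 0.08 (limma, adjusted p = 7.52e-05). At day 7 against day 0 the fit without slide gave -1.002 ± 0.38 (adjusted p = 0.0520).

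MOUSELNCRNA_68284 had 4.99 at day 0, 4.71 at day 3 and 4.66 and 4.68 at day 7 on slide 2, against 6.36 and 6.30 at day 0 and 6.30 and 6.38 at day 3 on slide 1. On slide 3 it had 4.52 at day 7 and 4.60, 4.18 and 4.50 at day 14, where it was not well above background at day 14. Slide 2 differed from slide 1 by -1.48 ± 0.12 (limma, adjusted p = 0.000174), while the fit without slide called a fall at day 7 against day 0 of -1.26 ± 0.45 (adjusted p = 0.0398). MOUSELNCRNA_70788 differed between these slides by -1.75 ± 0.27 (adjusted p = 0.00210) and MOUSELNCRNA_67219 by -0.97 ± 0.13 (adjusted p = 0.00126). Both were among the named falls at day 14, and MOUSELNCRNA_67219 among those at day 7 against day 3 too.

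MOUSELNCRNA_43517, by far the brightest member, had 14.81, 14.66 and 13.14 at day 0, 15.37, 15.26 and 14.08 at day 3, 13.47, 13.94 and 13.32 at day 7 and 13.50, 13.04 and 13.53 at day 14. At days 0 and 3 its array on slide 2 lay more than 1 log2 unit below the other 2. Slide 2 differed from slide 1 by -1.42 ± 0.20 (limma, adjusted p = 0.00140). Day 7 against day 3 gave -1.33 ± 0.45 (adjusted p = 0.0426) without slide and -0.33 (adjusted p = 0.374) with it. In the authors' deposited log2 values, the mean difference between slide 2 and slide 1 at days 0 and 3 had the same sign in all 5 of these probes, from -0.65 in MOUSELNCRNA_67219 to -1.59 in MOUSELNCRNA_43517. In those values 15.2% of all tested probes were lower and 21.2% higher on slide 2. The 5 probes do not give the direction for the family.

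The longest run shared by 2 members was 59 bases, in 3 pairs. MOUSELNCRNA_39902 and the member it shares 59 bases with are an example.
MOUSELNCRNA_29902: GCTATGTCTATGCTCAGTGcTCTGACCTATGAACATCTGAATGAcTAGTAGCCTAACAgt
MOUSELNCRNA_29902 had 10.54, 10.57 and 9.34 at day 0, 11.09, 10.92 and 10.42 at day 3, 10.14, 10.38 and 9.77 at day 7 and 10.02, 9.66 and 10.01 at day 14. MOUSELNCRNA_39902 had 10.88, 10.54 and 9.80 at day 0, 11.27, 10.97 and 10.56 at day 3, 10.001, 10.62 and 9.70 at day 7 and 9.76, 9.46 and 10.09 at day 14. In both probes day 3 was brightest and replicate 3 of day 0 lay below the other 2 arrays of its day. The mean signals of the 3 pairs, all seen on 12 arrays, differed by 0.07, 0.14 and 0.21 on the log2 scale. The pair with a run of 57 bases differed by 0.71 and the pair with 51 bases by 0.92. These last pairs were dim: the members with 57 bases were seen on 4 and 5 arrays, those with 51 bases on none. Run length and dimness cannot be told apart in these pairs. Over the 1417 linked pairs with a run of 25 to 29 bases the median difference in mean signal was 1.59, over the 352 pairs with 30 to 39 bases it was 1.39, and over all 25651 pairs of members it was 2.10. The same probe in 2 spots of an array differed by a median of 0.17 between its spots over the 217 members with 2 spots. Pairs share members and the array, so these medians are a description.

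Brightness in the family also went with sequence. Over the 227 members, Spearman's rho between mean signal and GC content was 0.45, against 0.04 over all 90752 probes. Between mean signal and the number of edits it was -0.32. Members seen on every array had a median of 7 edits and a GC content of 41.7%, and members seen on none had 10 edits and 36.7%. The members are related sequences, so the points are not independent, and edits and GC content vary together with the letters themselves.

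The alignment had 3 positions at which the family was most divided: bases 11, 12 and 29. At base 29, 120 members carried A and 92 carried G. Of those with G, 58 (63.0%) were seen on all 12 arrays and 9 (9.78%) on none, and of those with A, 32 (26.7%) were seen on all and 37 (30.8%) on none. Members with G had a median of 8.5 edits and a GC content of 41.7%, and members with A had 7 edits and 38.3%. At day 7 against day 0, 54 of the 58 members with G that were seen on every array lay below 0, with a median of -0.57, and so did 28 of the 32 with A, with a median of -0.52. At day 14 against day 7 the medians were 0.29 with G and 0.01 with A. The letter was looked at after the levels of the family were known, and the difference between the letters was not tested.

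The threshold of 25 bases cut through a continuous range. Of the members, 24 were held by a run of exactly 25 bases, and 30 probes outside the family shared 24 bases with a member. MOUSELNCRNA_14538 and MOUSELNCRNA_17191 were just inside, each with 1 link of 25 bases, and MOUSELNCRNA_13739 was just outside.
MOUSELNCRNA_14538: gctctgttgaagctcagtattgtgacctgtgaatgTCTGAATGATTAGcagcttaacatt
MOUSELNCRNA_17191: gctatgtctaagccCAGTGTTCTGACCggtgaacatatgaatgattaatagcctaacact
MOUSELNCRNA_13739: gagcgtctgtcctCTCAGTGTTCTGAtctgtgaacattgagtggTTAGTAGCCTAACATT
MOUSELNCRNA_17191 was seen on all 12 arrays at 8.01 to 9.96, MOUSELNCRNA_14538 on none at 1.74 to 4.17. MOUSELNCRNA_13739 was seen on all 12 with a mean of 5.81, and MOUSELNCRNA_15973, the other probe named just outside, was seen on none. A run of 20 bases would have joined 451 probes and a run of 30 would have left 103 in the fourth largest group.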

How the data were processed

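The members and the probe rules were chosen with earlier results of these data known. Arrays were grouped by day in the labels, with 3 pools of 6 mice a day. The labels call the pools biological replicates, and the p-values rest on the spread between the 3 arrays of a day. Agilent Feature Extraction 10.7 was used by the authors to read spot intensity from the scans, per the submitters' processing notes. The deposited processed intensity had its background subtracted and a spatial trend removed, per the file headers, with no scaling between arrays. The deposited flags per spot are 0 or 1 values of another kind, per the file headers. A deposited table of log2 values was used as an alternative, and its further steps are not given in the sources used. Over all tested probes it nearly matched quantile normalization. At day 7 against day 0, both gave 25% higher and 20.3% lower. These settings therefore do not count as separate alternatives.

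Control spots and outlier spots were left out, repeated spots averaged as log2, and each array scaled to a 75th percentile of 9.34. Tested were 62803 of 90752 probes, those seen on every array of 1 day or more. The fit, in limma 3.58.1 (R 4.3.3), had a mean for each day over 12 arrays (8 residual degrees of freedom), and day plus slide for slide terms. Families were built from shared 25-base words with networkx 3.6.1 in Python 3.11.15. Both programs were tested on simulated data. Arrays give no read depth: the number of arrays limits the precision.

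Named are 6 members chosen by links, the 2 brightest and 2 dimmest by detection, and up to 2 rises and 2 falls per comparison (called, not overlapping, seen on all 6 arrays), and up to 2 probes on each side of the threshold. MOUSELNCRNA_2612 and MOUSELNCRNA_29902 fall outside this rule: the first was chosen after its values were seen, as was the pattern it shares with MOUSELNCRNA_75476, the second for its shared run.

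Slide was read from the slide numbers in the file names. Replicate numbers of day 0 and day 3 coincide with slides: deviations of the 3 same-number pairs correlated at 0.35, 0.51 and 0.64, and cross-number pairs on slide 1 at 0.39 and 0.47. Over all 18 same-number pairs the range was -0.38 to 0.64, and replicate 2 of day 0 and of day 7, on different slides, gave 0.37. These values do not show that the numbers pair arrays beyond the slide they share. Alternatives were quantile normalization, normexp with an offset of 50, the authors' log2 values, other filters, slide as a fixed or random block, the replicate number as a block, only the days compared, an adjusted p below 0.01 and leaving out each array.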

Additional observations from a re-analysis of the deposited data

How the results depend on the processing

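For the rises and falls named per comparison, each followed in its own comparison, no direction turned under any setting. Of their values under other settings 225 kept the call and 46 lost it. Probes named by the other rules, and other comparisons of the same probes, are not in this count. Percentages in brackets are the share of all probes tested in the same fit that was called. With normexp background correction the members called numbered 15 (40.4%) at day 3 against day 0, 41 (39.9%) at day 7 against day 0, 27 (42.6%) at day 14 against day 0, 19 (32.7%) at day 7 against day 3, 1 (8.13%) at day 14 against day 7 and 47 (64.7%) over the 4 days. Testing probes seen on all 12 arrays gave 28 (46.6%) at day 3 against day 0, 37 (48.5%) at day 14 against day 0 and 11 (10.9%) at day 14 against day 7. An adjusted p below 0.01 gave 31 (33.5%), 29 (26.8%), 3 (13.9%) and 10 (4.26%) for day 3 and day 14 against day 0, day 7 against day 3 and day 14 against day 7, and 56 (47.7%) over the 4 days. At day 14 against day 0, quantile normalization and the authors' log2 values, which nearly coincide over all tested probes, both gave 41 (48.2%). In the same comparison a fixed slide block gave 7 (16.5%) and a random one 16 (24.9%). At day 7 against day 3, a fixed slide block gave 6 (25.8%), a random one 13 (29.5%), no filter 19 (18.6%) and only the 2 days compared 18 (24.2%). A random slide block gave 27 (8.74%) at day 14 against day 7. With no filter, slide 2 against slide 1 gave 98 (37.9%), of which 22 had been seen on no array, and slide 3 against slide 2 gave 1 (0.445%). With 1 array left out, the counts were 35 to 82 (32.4% to 56.1%) at day 14 against day 0, 6 to 58 (19.2% to 43.9%) at day 7 against day 3, 11 to 16 (5.62% to 8.99%) at day 14 against day 7, and, in an alternative added after seeing the data, 33 to 55 (19.2% to 37.6%) for slide 2 against slide 1, lowest without replicate 3 of day 3. At day 14 against day 7 the lowest count came without replicate 3 of day 7. With the replicate block, the counts were 46 (44.4%), 89 (46.7%) and 71 (50.5%) for days 3, 7 and 14 against day 0, 42 (38.2%) at day 7 against day 3, 17 (9.16%) at day 14 against day 7 and 99 (72.6%) over the 4 days; beside the rise of MOUSELNCRNA_48788 at day 3 the block ended no named call. The cause of these differences was not tested. The median count of members seen per array was 124.5, or 141.5 with any spot and 162.5 with the flag for positive and significant signal. Runs of 20 and 30 bases gave families of 451 and 103. Dim signal limits what can be told: 49 members were seen on no array, and their values carry no order between days. Leaving out the 1 day 7 array of slide 3 gave no value for slide 3 against slide 2.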
